A study of Sus scrofa with 18 samples.

Results

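The retina holds little of the collagen-rich connective tissue that surrounds it, but it rests on, and is lined by, sheets of extracellular matrix. The members described here are 47 genes of that matrix and of the integrins, the cell surface receptors that bind it. They are the collagen chains (symbols beginning COL), the laminin beta and gamma chains (LAMB, LAMC) and the integrin chains (ITGA, ITGB). The others are the matrix metalloproteinases (MMP), their tissue inhibitors (TIMP1 to TIMP4), fibronectin (FN1), lumican (LUM), decorin (DCN) and osteonectin (SPARC). No laminin alpha chain (LAMA), COL1A1 or COL4A1 was among the 47 members. They were taken by symbol alone from 6765 genes that carried 1 gene symbol in the annotation of the array, and each gene was read at its brightest probe set, the one with the highest mean over all arrays. One of the 47, ITGB1BP2, matches the symbol pattern of the integrins although it encodes a protein that binds an integrin tail.

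As background, laminins and type IV collagen polymerise into basement membranes, which line the inner face of the retina, surround its vessels and lie beneath the pigment epithelium in Bruch's membrane. Fibrillar collagens build the vitreous, the sclera and vessel walls. Integrins are pairs of an alpha and a beta chain that tie cells to laminin, collagen, fibronectin or other ligands. Metalloproteinases cut the matrix, and TIMPs hold them in check.

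Whole retina was taken at postnatal day 38 from 18 males of a domestic pig cross, Landrace x Large White. The piglets were 3 days old when they were bought and placed at random in 1 of 2 diets, 9 piglets each. The control diet was a pig milk replacer, and the other diet was that milk replacer with sialyllactose, a milk sugar that carries sialic acid; the labels used here give no dose. All piglets were kept in a 12-h light and 12-h dark cycle, and each array held RNA of 1 retina sample, labelled as a replicate of its diet. Neither litters nor batches of arrays are named in the labels, so no batch could be examined, and p-values measure the spread between these samples. Because whole tissue was measured, fewer cells of a type and less RNA per cell cannot be told apart in any value below.

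The values are log2 RMA values, in which 1 unit is a doubling of the probe set signal. RMA puts all arrays on a common distribution, so the array medians lay between 3.85 and 3.91, and the correlation between any pair of arrays was 0.981 to 0.992. A level filter left out the 30% of probe sets with the lowest mean, which fell at a mean log2 value of 1.48. Of the 47 genes, 30 passed this filter and were tested, and 17 lay under it. Of all genes with 1 gene symbol, 5710 of 6765 passed. Control replicate 2 stood apart from the other retinas: it was the lone extreme value of its diet in 291 of the 5710 tested genes, against 21 to 62 genes for any other retina. Values without it are given beside several of the results below, ITGAV, ITGB1, ITGB3, COL2A1, COL4A2 and TIMP2 among them. The tissue carried its defining markers, with log2 values of 10.6 for SAG (rod arrestin), 9.63 for ARR3 (cone arrestin), 9.91 for SNAP25 (synapses) and 10.5 for GLUL (Mueller glia). Of 12 connective tissue markers listed, 7 had a named probe set and 3 of these passed the filter. The 3 were DPT, FBLN1 and THY1, at mean log2 values of 1.67, 3.47 and 5.54. MFAP5, POSTN, FAP and CILP were under the filter.

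The share of members above the filter differed between families, as the plot of all 47 genes by retina shows. Levels of different probe sets cannot be ranked as amounts of RNA, since probes differ in how well they bind, so the log2 values below place each gene only within its own range and against the filter. All 7 fibrillar collagens passed, with mean log2 values from 1.76 (COL11A1) to 6.04 (COL5A3). The basement membrane collagen COL4A2 was at 3.48. The laminin chains among the members, LAMB1, LAMB2 and LAMC1, all passed, at 1.84 to 3.56. Of 7 other collagens 6 passed, and COL15A1 did not. Of 13 genes with an integrin symbol 6 passed. Those under the filter were ITGA2, ITGA5, ITGA6, ITGAM, ITGB2, ITGB7 and ITGB1BP2, among them the leukocyte chains ITGAM, ITGB2 and ITGB7. Of 8 metalloproteinases only MMP14 passed, and MMP1, MMP2, MMP3, MMP7, MMP9, MMP13 and MMP20 did not. TIMP1, TIMP2 and TIMP3 passed and TIMP4 did not. FN1, LUM and SPARC passed and DCN did not. On either side of the filter, ITGA8 was just above it at 1.51, and MMP9 and ITGB1BP2 were the nearest below, at 1.34 and 1.33.

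**Figure D1:**
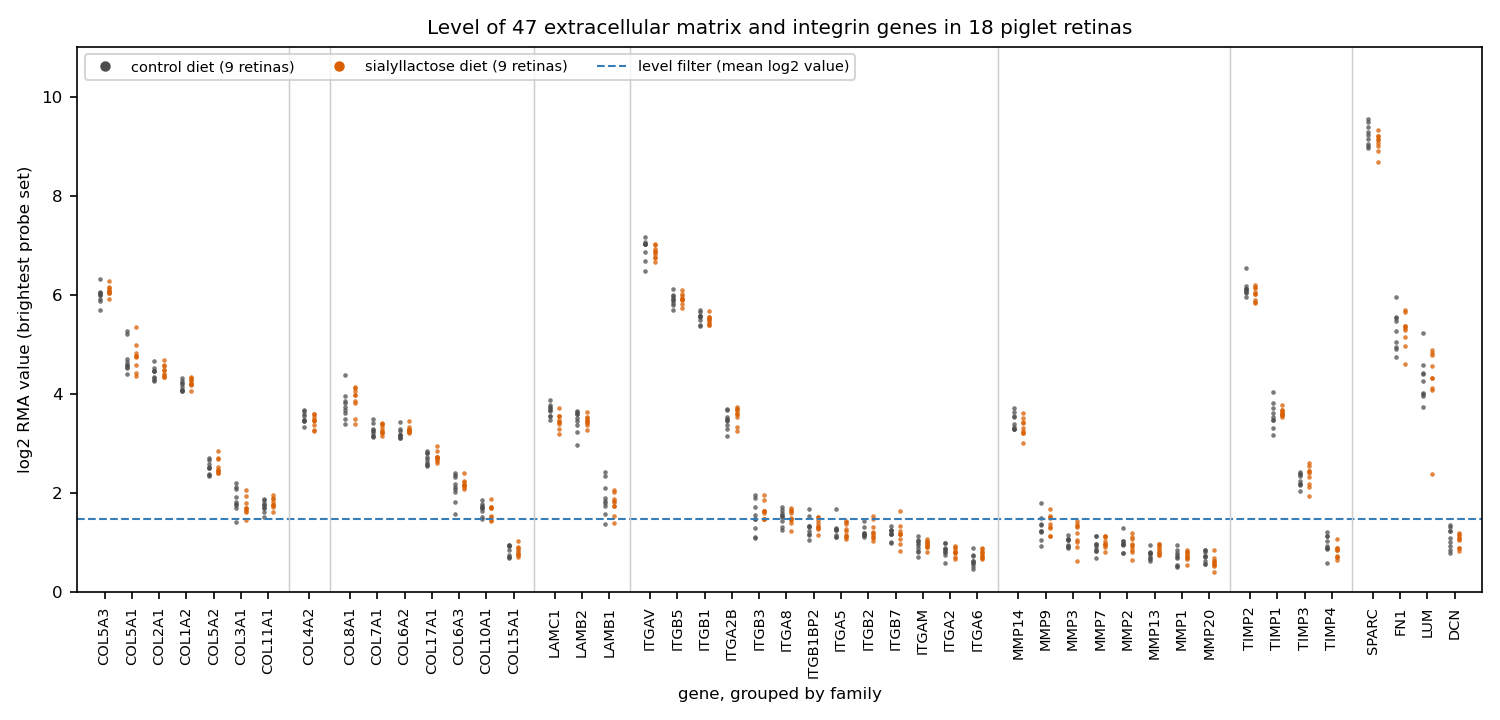
Each point is the log2 RMA value of 1 retina at the brightest probe set of a gene, grey for the control diet and orange for sialyllactose (9 retinas each), with genes grouped by family along the horizontal axis and the level filter at 1.48 as a dashed line. The points of both diets overlap for every gene, and 7 of the 8 MMP genes lie under the filter.

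The diet comparison asked whether sialyllactose in the milk replacer went with a different level of any of these genes. None of the 30 tested genes passed limma's test at an adjusted p under 0.05, and neither did any of the 16799 probe sets tested (0.0%; lowest adjusted p = 0.691). At an unadjusted p under 0.05 there was 1 member, LAMC1, where 5.62% of the tested genes and 6.3% of the probe sets reached that level. Of the 30 genes, 18 had a higher and 12 a lower mean with sialyllactose, and their median difference was 0.02 on the log2 scale. Over all 5710 tested genes 43.3% were higher and 56.7% lower, with a median of -0.01. With each array centred on its median 19 members were higher and 11 lower, and 46.6% of all tested genes were lower, so the balance over all genes depended on the scaling. The intervals were narrow: limma's 95% interval stayed inside a 1.5-fold change up or down in 30 of 30 genes and inside 1.25-fold in 23, and it held 0 in 29. When this diet comparison was simulated with 200 changed probe sets among 16799, the same fit recovered 83.6% of changes of 1.4-fold and 40.3% of changes of 1.2-fold. Of the 200 changes 66 were 2-fold, which eases the adjusted threshold for the others, and noise was drawn independently for each probe set. These shares therefore do not give the chance of finding a single changed member in these data.

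**Figure D2:**
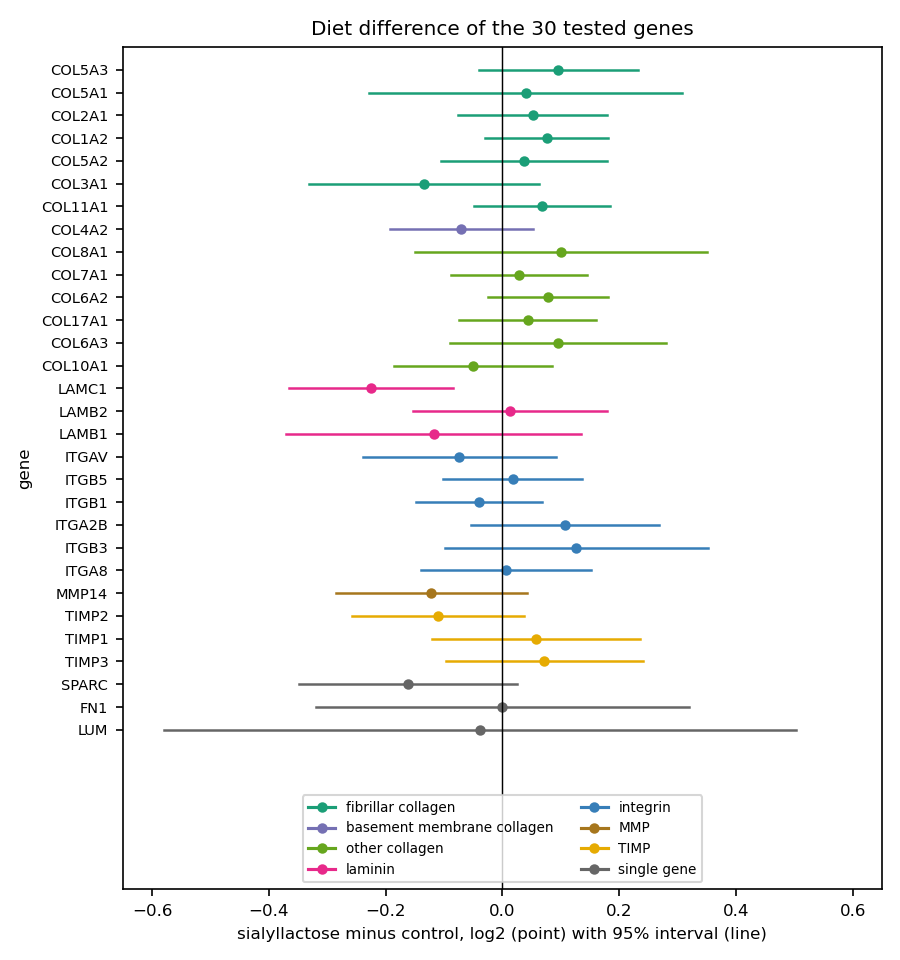
The horizontal axis is the difference in mean log2 value, sialyllactose minus control, for each of the 30 tested genes (points), with limma's 95% interval (lines), coloured by family; each diet has 9 retinas. LAMC1 at -0.22 is the 1 gene whose interval does not hold 0, and LUM has the widest interval.

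Fibrillar collagens had small differences of mostly 1 sign. Of the 7, 6 had a higher and 1 a lower mean with sialyllactose, and the median difference was 0.05 on the log2 scale. COL5A3, a chain of the type V collagen that regulates fibril diameter, ran from a log2 value of 5.69 to 6.31 with a median of 5.99 in control retinas. With sialyllactose it ran from 5.92 to 6.27 with a median of 6.07. The diets overlapped, 8 of 9 sialyllactose retinas lay above the control median, and the difference was 0.10 (95% interval -0.04 to 0.23; limma adjusted p = 0.856). COL1A2, a chain of type I collagen, had control log2 values of 4.06 to 4.33 (median 4.13) and sialyllactose values of 4.05 to 4.34 (median 4.21). Here too the ranges nearly coincided while 8 of 9 sialyllactose retinas lay above the control median, at a difference of 0.08 (-0.03 to 0.18; limma adjusted p = 0.847).

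COL5A1, another type V chain, had the largest SD between retinas among the fibrillar collagens, 0.30 on the log2 scale within diets. Its control values were 4.40 to 5.27 (median 4.58) and its sialyllactose values 4.36 to 5.34 (median 4.76). Control replicates 3 and 7 and sialyllactose replicate 5 stood at 5.20 or above and the other retinas at 4.98 or below, and the difference was 0.04 (-0.23 to 0.31). COL2A1, the chain of type II collagen, the main collagen of vitreous and cartilage, had log2 means of 4.42 ± 0.13 (SD, n = 9) in control retinas and 4.47 ± 0.12 (n = 9) in sialyllactose retinas. The difference was 0.05, and 0.08 without control replicate 2. A second, dimmer COL2A1 probe set differed by -0.12, the opposite sign. COL3A1, a collagen of vessel walls, was the 1 fibrillar collagen with a lower mean, 1.73 ± 0.18 against 1.86 ± 0.24 in control, close to the filter.

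Among the genes of basement membranes, LAMC1 had the largest difference of all 30 members. LAMC1 encodes the gamma chain found in most laminins. Its control log2 values ran from 3.46 to 3.88 with a median of 3.67, and its sialyllactose values from 3.19 to 3.72 with a median of 3.43. Of the 9 sialyllactose retinas 8 lay below the control median, and the diets overlapped between 3.46 and 3.72. The means were 3.67 ± 0.13 in control and 3.45 ± 0.16 with sialyllactose (SD, n = 9 each), a difference of -0.22 (95% interval -0.36 to -0.08), or 0.856-fold. The unadjusted limma p was 0.00316 and the adjusted p over all probe sets 0.691, so it did not pass. Leaving out any 1 retina left the difference between -0.26 and -0.19. The other LAMC1 probe set past the filter, at a mean of 1.73, differed by 0.05 in the other direction.

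Several marker lists of other cells also had lower means with sialyllactose, where 56.7% of all tested genes were lower. Their part in the LAMC1 difference was not tested. Not all lists did so: of the neuron markers 5 of 6 were higher. The markers of mural cells (pericytes and smooth muscle) were split, 3 higher and 4 lower. With centred arrays 46.6% of all tested genes were lower. The lists described next then had 7 of 8 endothelial, 4 of 5 pigment epithelium, 3 of 4 astrocyte and 6 of 8 Mueller glia markers lower. Of the endothelial markers 7 of 8 tested genes were lower, with a summed log2 level of 22.8 to 24.6 in control and 21.5 to 23.3 with sialyllactose; FLT1, TIE1 and ENG were under the filter. Of the pigment epithelium markers 4 of 5 were lower, with sums of 17.3 to 22.8 and 18.9 to 22.6; TYRP1 was under the filter. Of the astrocyte markers 3 of 4 were lower, with sums of 16.8 to 19.7 and 15.9 to 18.5, and of the Mueller glia markers 7 of 8, with sums of 59.99 to 63.9 and 59.2 to 62.3. Of the microglia and leukocyte markers 3 of 4 were lower, and 2 of 4 with centred arrays. None of these marker genes passed limma's adjusted threshold. At an unadjusted p under 0.05 there were 3 endothelial markers (PECAM1, VWF and TEK), 2 astrocyte markers (GFAP and GJA1) and 2 Mueller glia markers (VIM and CRYAB). There was also 1 pigment epithelium marker (BEST1) and 1 microglia and leukocyte marker (LAPTM5), where 5.62% of all tested genes reached that level. Within diets LAMC1 had r = 0.50 with the pigment epithelium markers (rho = 0.63; permutation p = 0.029 and 0.00557; adjusted p = 0.497 and 0.273), and 0.33 without 2 retinas. With the astrocyte markers it had r = 0.47 (rho = 0.55; permutation p = 0.0531 and 0.022; adjusted p = 0.708 and 0.53), and 0.21 without 2 retinas. With the endothelial markers it had r = 0.25 (rho = 0.14; permutation p = 0.35 and 0.584), and with the Mueller glia markers r = 0.14. With the mural cell markers it had r = 0.30 (rho = 0.38; permutation p = 0.224 and 0.132), and 0.56 without 2 retinas.

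The partner chains of LAMC1 had other patterns. LAMB1, a beta chain, was dim and spread widely, with control log2 values of 1.37 to 2.42 (median 1.83) and sialyllactose values of 1.39 to 2.06 (median 1.82). The medians were nearly the same, and the difference of means was -0.12 (-0.37 to 0.14), or -0.18 without control replicate 3 and -0.05 without control replicate 8. LAMB2, the beta chain enriched at synapses and vessel walls, had control values of 2.97 to 3.66 (median 3.52) and sialyllactose values of 3.28 to 3.64 (median 3.46). Control replicate 3 was the low value, and the difference was 0.01, turning to -0.05 without that retina. COL4A2, a chain of the type IV collagen network, was at 3.51 ± 0.11 in control and 3.44 ± 0.13 with sialyllactose, a difference of -0.07 (-0.19 to 0.05).

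The other collagens that passed had higher means with sialyllactose in 5 of 6 cases, with a median difference of 0.06 on the log2 scale. COL8A1 encodes a chain of type VIII collagen, a component of Bruch's membrane. Its control log2 values were 3.40 to 4.38 (median 3.73) and its sialyllactose values 3.39 to 4.15 (median 3.98). The ranges overlapped almost wholly, and the difference was 0.10 (-0.15 to 0.35), or 0.05 without control replicate 6 and 0.18 without control replicate 7. COL6A2, a chain of the beaded filaments of type VI collagen, had the smallest SD of all 30 genes, 0.09. Its control values were 3.12 to 3.43 (median 3.16) and its sialyllactose values 3.21 to 3.45 (median 3.28). All 9 sialyllactose retinas lay above the control median, yet the difference was 0.08 (-0.02 to 0.18; limma adjusted p = 0.834). COL6A3, its partner, was at 2.10 ± 0.27 and 2.19 ± 0.09. COL7A1, the anchoring fibril collagen, COL17A1, a transmembrane collagen of hemidesmosomes, and COL10A1, known from cartilage, differed by 0.03, 0.04 and -0.05. Over all 14 tested collagens 11 had higher and 3 lower means with sialyllactose, with a median difference of 0.05, where 43.3% of all tested genes were higher. The counts of 11 and 3 were the same with centred arrays and after a second quantile normalization. The share of all tested genes that were lower was 46.6% and 49.9% in those settings, against 56.7% in the main one. As a mean over probe sets the COL2A1 difference turned negative.

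The secreted glycoproteins included the members that varied most from retina to retina. FN1 encodes fibronectin, which links collagen to integrins. Its control log2 values were 4.74 to 5.95 (median 5.26) and its sialyllactose values 4.61 to 5.68 (median 5.33), a range of 2.53-fold over the 18 retinas. The diets covered the same range, and the means were 5.27 ± 0.39 and 5.27 ± 0.33. The difference was 0.00 (-0.32 to 0.32), and its sign depended on the scaling of the arrays. A second tested FN1 probe set, close to the filter, differed by -0.08, and those under the filter by -0.15 and -0.06.

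LUM encodes lumican, a small proteoglycan of collagen fibrils in cornea and sclera. Its control log2 values were 3.74 to 5.23 (median 4.26) and its sialyllactose values 2.38 to 4.89 (median 4.32). The low value was sialyllactose replicate 9, and the next lowest retina of that diet was at 4.07. The range over all retinas was 7.21-fold, and the SD within diets, 0.62, lay at the 99.4th percentile of the tested genes. The difference between diets was -0.04, and 0.20 without sialyllactose replicate 9. Within diets LUM had r = 0.05 with the mean of the 3 tested connective tissue markers (rho = -0.05; permutation p = 0.807 and 0.851; adjusted p = 0.993 for r), and that mean was 3.51 in sialyllactose replicate 9, within the range of 3.34 to 3.65 of its diet. Those 3 markers were DPT, close to the filter at 1.67, FBLN1 and THY1, and their single correlations with LUM ran from -0.28 to 0.34. The part of connective tissue in the LUM values was not tested. DCN, another small proteoglycan, was under the filter at 1.09 ± 0.20 in control and 1.04 ± 0.13 with sialyllactose.

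SPARC encodes a secreted collagen-binding protein that modulates adhesion. Its control log2 values were 8.96 to 9.55 (median 9.22) and its sialyllactose values 8.69 to 9.33 (median 9.11). Of the 9 sialyllactose retinas 8 lay below the control median, with wide overlap, and the difference was -0.16 (-0.35 to 0.02; limma adjusted p = 0.795). A second SPARC probe set at a mean of 3.35 differed by -0.03. Within diets SPARC had r = 0.55 with the Mueller glia markers (rho = 0.52; permutation p = 0.0233 and 0.0375; adjusted p = 0.497 for r), and 0.36 without control replicates 1 and 8. With the endothelial markers it had r = 0.46 (rho = 0.48; permutation p = 0.0594 and 0.0464; adjusted p = 0.717 for r), and 0.51 without 2 retinas. The part of those markers in its difference was not tested.

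Among the receptors, the chains above the filter were ITGAV, ITGA2B, ITGA8, ITGB1, ITGB3 and ITGB5. ITGAV, which pairs with ITGB5 at the apical surface of the pigment epithelium, had control log2 values of 6.48 to 7.16 (median 7.03) and sialyllactose values of 6.67 to 7.02 (median 6.86). All 9 sialyllactose retinas lay below the control median, 5 of the 9 control retinas lay above every one of them, and the lowest of all 18 was control replicate 2. The difference was -0.07 (-0.24 to 0.09; limma adjusted p = 0.91), and -0.13 without control replicate 2. ITGB5 had control values of 5.70 to 6.11 (median 5.89) and sialyllactose values of 5.72 to 6.09 (median 5.92), which cover the same range, with a difference of 0.02 (-0.10 to 0.14).

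ITGB1, the beta chain shared by the laminin and collagen receptors, had control log2 values of 5.36 to 5.68 (median 5.56) and sialyllactose values of 5.40 to 5.66 (median 5.51). Of the sialyllactose retinas 8 of 9 lay below the control median, at a difference of -0.04 (-0.15 to 0.07), or -0.06 without control replicate 2. Of the alpha chains that can pair with ITGB1, ITGAV was well above the filter, as described above. ITGA8 was at 1.51 ± 0.15 in both diets, and ITGA2, ITGA5 and ITGA6 were under the filter. ITGA1 and ITGA3 were not among the members. ITGA2B, the platelet alpha chain, was at 3.46 ± 0.17 and 3.57 ± 0.17, and ITGB3, its beta partner and also a partner of ITGAV, at 1.51 ± 0.31 and 1.64 ± 0.17, differences of 0.11 (-0.05 to 0.27) and 0.13 (-0.10 to 0.35). The ITGB3 difference was 0.07 without control replicate 2.

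Of the enzymes, MMP14, a membrane-bound metalloproteinase, had control log2 values of 3.29 to 3.72 (median 3.39) and sialyllactose values of 3.01 to 3.61 (median 3.30). The 2 diets overlapped over most of the range, and the difference was -0.12 (-0.29 to 0.04; limma adjusted p = 0.84). TIMP2, the inhibitor that also takes part in MMP2 activation by MMP14, had control values of 5.95 to 6.55 (median 6.11) and sialyllactose values of 5.84 to 6.20 (median 6.01). Its highest value was control replicate 2, and the next retina of that diet was at 6.17. The difference was -0.11 (-0.26 to 0.04), and -0.06 without that retina.

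TIMP1, an inhibitor that tissues raise on injury, had control values of 3.17 to 4.03 (log2, median 3.54) and sialyllactose values of 3.54 to 3.77 (median 3.62). All 9 sialyllactose retinas lay inside the control range and above its median, at a difference of 0.06 (-0.12 to 0.24), or 0.0067 without control replicate 5 and 0.12 without control replicate 7. TIMP3, the inhibitor that is stored in Bruch's membrane, was at 2.26 ± 0.13 in control and 2.33 ± 0.22 with sialyllactose. TIMP4 was under the filter at 0.96 ± 0.19 and 0.82 ± 0.13.

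The spread between retinas was itself uneven between diets for some members. TIMP1 had an SD of 0.26 in control and 0.07 with sialyllactose, and COL6A3 of 0.27 and 0.09, ratios of 3.66 and 2.96. LUM ran the other way, 0.44 and 0.77. The SD was larger in control for 23 of the 30 members, where it was larger in control for 63.8% of all tested genes. Without control replicate 2 it was larger in control for 21 members and for 55.2% of genes. These ratios were picked after seeing the values and carry no test. The median SD within diets was 0.16 over the members and 0.14 over all tested genes, and LUM (0.62) and FN1 (0.36) lay at the 99.4th and 97.0th percentiles. In 3 of the 60 sets of 9 retinas (30 genes in each diet) 1 retina lay far from the others, where 8.21% of such sets did over all tested genes; these were LUM, TIMP2 and COL6A2.

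**Figure D3:**
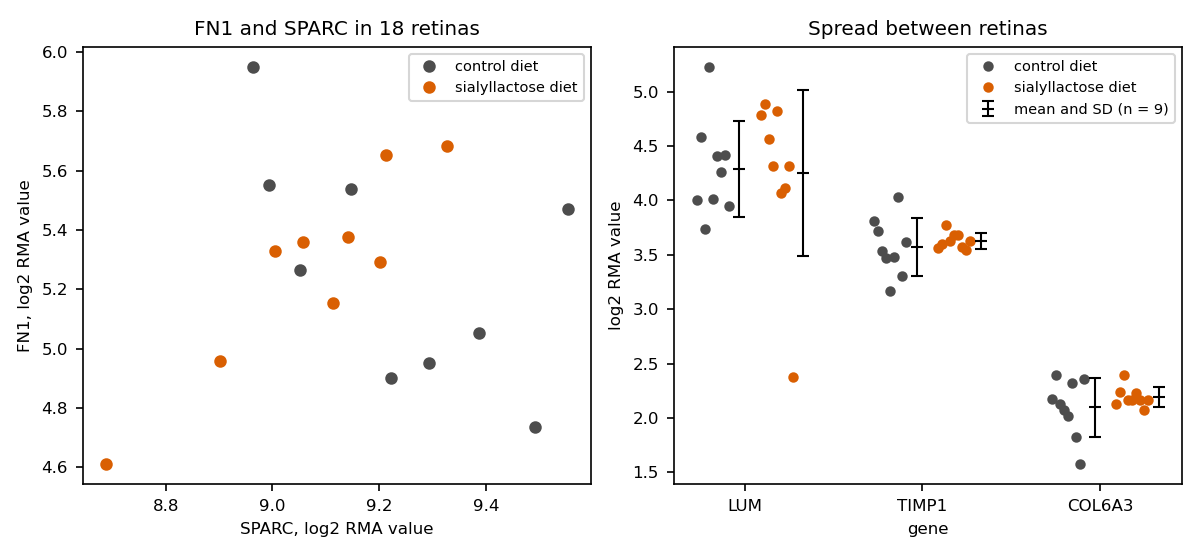
Left, the log2 RMA values of FN1 (vertical) and SPARC (horizontal) in each of the 18 retinas, grey for control and orange for sialyllactose. Right, the log2 values of LUM, TIMP1 and COL6A3 by diet with mean and SD (bars, n = 9); the TIMP1 and COL6A3 values are closer together with sialyllactose, and 1 sialyllactose retina is far below the others for LUM at 2.38.

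Whether the members went up and down together from retina to retina was examined on deviations from each diet's mean, so that a diet difference cannot create a correlation. Over the 435 pairs of tested members the median correlation was 0.04, and 8 pairs (1.84%) had r over 0.5, where 3.50% of all pairs of tested genes did. Below -0.5 there were 10 pairs (2.30%) against 3.01%. Without control replicate 2, 16 pairs (3.68%) had r over 0.5 against 3.37%, and 13 (2.99%) had r below -0.5 against 2.88%. Over all 18 retinas the median r was 0.07 within the 14 collagens, 0.08 within the 6 integrins and 0.20 within the 3 laminins. No pair within the fibrillar collagens, the laminins or the integrins was over 0.5, and 3 pairs (3.30%) within the 14 collagens were.

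**Figure D4:**
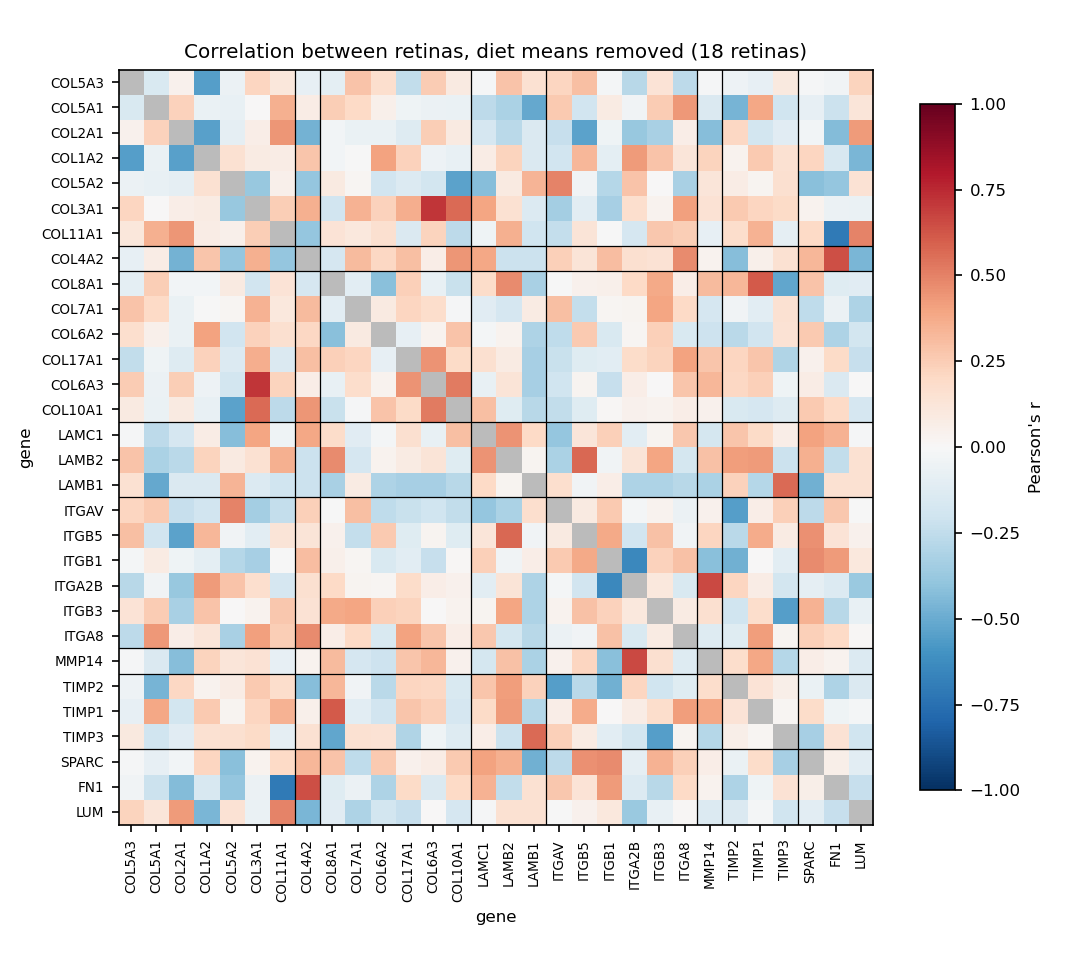
Pearson's r between each pair of the 30 tested genes over 18 retinas after removal of the diet means, from blue (-1) to red (1), with lines between the families in the order fibrillar, basement membrane and other collagens, laminins, integrins, MMP, TIMP and the single genes. No family forms a solid red block along the diagonal; the highest value is 0.71 (COL3A1 with COL6A3) and the lowest -0.70 (COL11A1 with FN1).

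Genes listed as partners were tested as pairs. The 54 pairs were chains of 1 protein, receptor and ligand, protease and inhibitor, or other matrix genes set together. FN1 with SPARC and TIMP1 with TIMP3 are examples of the last kind. Both genes were past the filter in 20 of the 54 pairs, and 0 of the 20 (0.0%) passed at an adjusted permutation p under 0.05. At an unadjusted p under 0.05 there were also 0 by Pearson's r, and 1 by Spearman's rho. The highest was LAMB2 with LAMC1, chains of the same laminin, at r = 0.45 (rho = 0.31; permutation p = 0.0511 and 0.219; adjusted p = 0.616 for r), falling to 0.30 without the 2 retinas farthest from the median of LAMB2. COL2A1 and COL11A1, which share the fibrils of the vitreous, followed at r = 0.44 (rho = 0.34; permutation p = 0.0776 and 0.175; adjusted p = 0.616 for r), and 0.16 without 2 retinas. FN1 and ITGB1, a ligand and a receptor chain, were at r = 0.43 (rho = 0.51; permutation p = 0.0924 and 0.0367; adjusted p = 0.616 for r and 0.735 for rho), and 0.36 without 2 retinas. Several pairs of chains of 1 protein had r near 0: COL6A2 with COL6A3 was at r = 0.04, COL5A1 with COL5A2 at -0.07, and ITGAV at 0.09 with ITGB5 and 0.03 with ITGB3. Without control replicate 2 the ITGAV correlations were -0.13 and -0.40.

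The correlation of FN1 and SPARC had opposite signs in the 2 diets. Over the 9 control retinas their correlation was -0.59 (rho = -0.65), so that retinas with more FN1 signal had less SPARC signal. Over the 9 sialyllactose retinas it was 0.92 (rho = 0.82). The difference of r between diets had an exact permutation p of 0.00576 over 48620 splits of the diet labels, and an adjusted p of 0.115 over the 20 pairs, so it did not pass. This comparison between diets was added after the values were seen. Leaving out 1 retina, r stayed between -0.86 and -0.42 in control and between 0.82 and 0.94 with sialyllactose. The brightest probe set was used for both genes. In FN1 and in SPARC a second tested probe set went against it, at r = -0.39 and -0.36. That of FN1 was close to the filter, at a mean log2 value of 1.49, and that of SPARC was at 3.35. The other FN1 probe sets, under the filter, had r of 0.47 and 0.22 with the brightest.

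Among all pairs of members, those with the highest and lowest correlations were picked by value and are described without a test. COL3A1 and COL6A3 had r = 0.71 (rho = 0.59), ITGA2B and MMP14 0.66 (rho = 0.70), COL4A2 and FN1 0.64 (rho = 0.65), and COL8A1 and TIMP1 0.62 (rho = 0.51). At the other end were COL11A1 and FN1 at -0.70 (rho = -0.70) and ITGA2B and ITGB1 at -0.65 (rho = -0.59). ITGAV and TIMP2 had r = -0.55, which was -0.11 without control replicate 2, the retina with the highest TIMP2 and the lowest ITGAV value. Without that retina the other 6 pairs kept their sign, with r of 0.60 to 0.66 for the positive and -0.71 to -0.68 for the negative ones.

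The members that came closest to a relation with a cell type were COL4A2 and ITGB1, with vessel markers. Each of the 30 genes was set against the mean level of 8 marker lists, 240 combinations in all. None passed at an adjusted p under 0.05 (0.0%). At an unadjusted p under 0.05 there were 3 members for the endothelial list (4.77% of all tested genes), 4 for mural cells, the pericytes and smooth muscle of vessels (8.87%), 4 for Mueller glia (7.3%), 2 for the pigment epithelium (3.77%), 2 for microglia and leukocytes (3.8%), 1 for astrocytes (4.47%), 1 for connective tissue (3.75%) and 0 for neurons (6.15%). COL4A2 had r = 0.78 with the 8 endothelial markers (rho = 0.75; permutation p = 0.00042 and 0.00086; adjusted p = 0.0504 for r and 0.103 for rho). It was 0.75 without the 2 retinas farthest from the median of the marker level, and 0.75 without control replicate 2 (permutation adjusted p = 0.377). Of the 8 single markers 6 had a positive correlation with COL4A2, and the single values ran from -0.46 to 0.57. COL4A2 was also at r = 0.68 with the 7 mural cell markers (rho = 0.50; permutation p = 0.00227 and 0.0406; adjusted p = 0.182 for r), and at 0.46 without 2 retinas.

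ITGB1 had r = 0.76 with the mural cell markers (rho = 0.76; permutation p = 0.00027 and 0.00068; adjusted p = 0.0504 for r and 0.103 for rho), and 0.63 without the 2 farthest retinas. Control replicate 2 was the lowest retina in both ITGB1 and that marker mean, and without it r was 0.68 (permutation adjusted p = 0.377). Of the 7 markers 6 had a positive correlation with ITGB1, and the single values ran from -0.24 to 0.76. With each array centred on its median, both relations passed the threshold (permutation adjusted p = 0.0336 for each). After a second quantile normalization that of ITGB1 did (0.0288) and that of COL4A2 did not (0.0768). The summed log2 level of the 7 mural cell markers was 25.3 to 29.2 over the control retinas and 26.5 to 29.1 over the sialyllactose retinas.

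**Figure D5:**
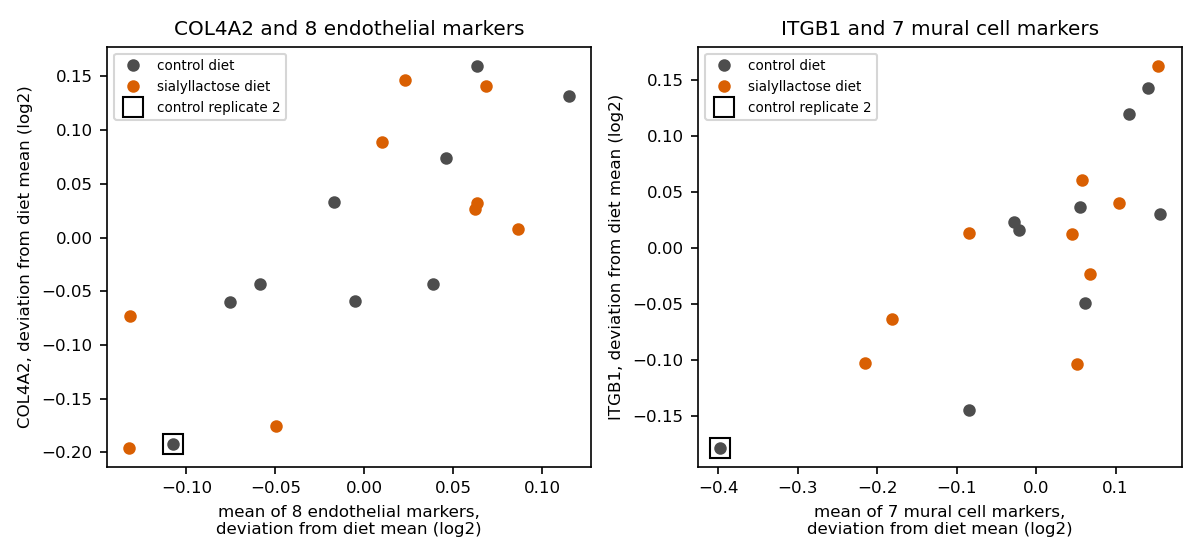
Each point is 1 retina, grey for control and orange for sialyllactose, with control replicate 2 in a square. The vertical axes are COL4A2 (left) and ITGB1 (right) and the horizontal axes the mean of 8 endothelial or 7 mural cell markers, all as log2 deviations from the diet mean; r is 0.78 on the left and 0.76 on the right, and control replicate 2 lies at the lower left of both plots.

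Other members followed glial, mural or microglia and leukocyte markers less closely. COL8A1 and TIMP1, themselves correlated, had r = 0.64 and 0.61 with the 8 Mueller glia markers (rho = 0.65 and 0.51; permutation adjusted p = 0.335 and 0.495 for r). All 8 markers had a positive correlation with each of them. FN1 had r = 0.58 with the mural cell markers (rho = 0.56, permutation adjusted p = 0.495 for r), and 5 of the 7 were positive. TIMP2 had r = -0.66 with the mural cell markers (rho = -0.39, permutation adjusted p = 0.495 for r). Without control replicate 2 and sialyllactose replicate 7 these were 0.41 for FN1 and -0.16 for TIMP2. With the 4 microglia and leukocyte markers FN1 had r = 0.55 (rho = 0.62, permutation adjusted p = 0.497 for r), and 0.52 without control replicate 3 and sialyllactose replicate 3.

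Over all tested genes, those whose deviations were most like COL4A2 were SH2D3C (r = 0.81, 18 retinas), TIAF1 (0.81), MYH9, a non-muscle myosin heavy chain (0.75), CHD3, a chromatin remodeller (0.73), RGS5, which is also 1 of the 7 mural cell markers (0.70), and CCDC146 (0.69). Those most like COL5A3 were APPL2 (0.78), MTRF1L (0.73), FNBP4 (0.72), TSNAX (0.71), AKAP8L (0.70) and KDM4B (0.69). These were the highest correlations over all tested genes outside the members and are given as descriptions.

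The genes that make, bind or cut the matrix outside the members had no diet difference past the test either. Of 152 such genes listed in 7 groups, 70 had a named probe set and 55 were tested. With sialyllactose 17 had higher and 38 lower means, with a median difference of -0.02 on the log2 scale, where 56.7% of all tested genes were lower. With centred arrays 25 were higher and 30 lower. None passed limma's adjusted threshold or an unadjusted p under 0.05, a level that 5.62% of all tested genes reached. Of the matrix glycoproteins 0 of 10 were higher and 10 lower, and 1 and 9 with centred arrays. FBLN1, fibulin, was at 3.56 ± 0.48 in control and 3.37 ± 0.25 with sialyllactose, EFEMP2, needed for elastic fibres, at 3.80 ± 0.35 and 3.65 ± 0.14, and SPP1, osteopontin, at 9.95 ± 0.26 and 9.90 ± 0.10. Of 11 genes of collagen synthesis 5 were higher and 6 lower. COLGALT1, which glycosylates collagen, differed by 0.11 (-0.01 to 0.22; limma adjusted p = 0.783), LOX, which cross-links it, by 0.13, and PLOD1, a lysyl hydroxylase, by -0.05.

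Of 10 genes of the adhesion complex at integrins 4 were higher and 6 lower, among them the tetraspanin CD9 at -0.24 (-0.49 to 0.01; limma adjusted p = 0.779) and the actin cross-linker FLNA at 0.13. CD81, another tetraspanin, differed by -0.01. Of 9 other proteases and inhibitors 2 were higher and 7 lower. PLAT, tissue plasminogen activator, differed by -0.25 (-0.53 to 0.02; limma adjusted p = 0.783), ADAM9 by -0.16 and the lysosomal protease CTSB by -0.01. Of 8 proteoglycan genes 2 were higher and 6 lower, but 5 and 3 with centred arrays, with the syndecan SDC2 at -0.17 (-0.34 to 0.01), aggrecan, ACAN, at 0.08 and SPOCK3 at -0.04. Of the 2 other basement membrane genes, EGFLAM (pikachurin, of the photoreceptor synapse) differed by 0.03 and NID2 (nidogen) by -0.04. Of 5 growth signal genes 3 were higher and 2 lower: TGFBR1 differed by 0.10, TGFB3 by 0.07 and PDGFRB by -0.01.

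Where a member had more than 1 probe set past the filter, the probe sets often disagreed. There were 10 such members, and in 3 of them (COL2A1, LAMC1 and TIMP3) the probe sets differed in the sign of the diet difference. The correlation between the brightest and the second probe set, on deviations from the diet means, ran from -0.39 (FN1) to 0.49 (COL5A1) and was above 0 in 6 of 10. No coordinate is given for these genes, since no genome build was named for the probe sets.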

How the data were processed

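Total RNA from 18 piglet retinas, 9 per diet, was hybridised to Affymetrix pig arrays. The authors deposited log2 values made with RMA in Affymetrix Expression Console, as the submitters' processing notes name these tools; versions and settings are not given in the sources used here. RMA values carry no detection call and compress differences of dim probe sets.

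From 24123 probe sets, 124 controls and then the 30% with the lowest mean (7200) were left out, leaving 16799. Gene symbols came from the platform annotation: 10099 probe sets had 1 symbol, 198 several and 13826 none in that annotation, and none was named from several. The 2 probe sets with a member symbol among several were left out. Diets were compared with limma (lmFit and eBayes, 18 arrays, no covariate), Benjamini-Hochberg adjustment over all tested probe sets and a threshold of 0.05. Fold is 2 to the power of the log2 difference. Correlations were taken on deviations from the diet means, with 100000 two-sided permutations within diets and Benjamini-Hochberg adjustment over 20 pairs or 240 combinations of gene and marker list; marker backgrounds over all genes used 20000. The diet difference of r was tested by exact permutation. The fit was tested on simulated data.

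The number of arrays limits the precision. Members, gene lists, marker lists and pairs were chosen with earlier results of these data known. Named members were FN1, LUM, DCN, SPARC, the TIMPs and, in each of collagens, laminins, integrins and MMPs, the 3 with the highest mean, the 2 with the smallest p and the 2 with the largest SD; in each list of other matrix genes, the 2 with the smallest p and the 1 with the highest mean. Members outside that rule are named by family or were chosen after their values were seen. Alternatives were other filters, scalings, array weights, a robust prior with an intensity trend, a replicate block, means over probe sets, exact rank-sum tests and leaving out each retina. R 4.3.3, limma 3.58.1, Python 3.11.15, numpy 2.4.6, pandas 2.3.3, scipy 1.17.1 and matplotlib 3.10.9 were used.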

Additional observations from a re-analysis of the deposited data

Results flagged for a closer look

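In 3 of the 60 sets of 9 retinas examined (30 genes in each of 2 diets), 1 retina lay far from the other retinas of its diet by a gap to the nearest of them that exceeded the 95% critical value of Dixon's test. Chance alone gives about 1 in 20 such sets, and over all tested genes 8.21% of sets had one. LUM was at a log2 value of 2.38 in sialyllactose replicate 9, and the next lowest retina of that diet was at 4.07. TIMP2 was at 6.55 in control replicate 2, and the next highest was at 6.17; this retina was also the lone extreme of its diet in 291 genes. COL6A2 was at 3.45 in sialyllactose replicate 6, above 3.32 in the next retina, and the diet difference of COL6A2 was 0.06 without it and 0.08 with it.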

How the results depend on the processing

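Of the 30 members, 0 passed the adjusted threshold under any of the 27 other settings (no filter or a 50% filter on dim probe sets, centred arrays, a second quantile normalization, array weights, a robust prior with an intensity trend, means over probe sets, exact rank-sum tests, the replicate block and each retina left out). With the replicate number as a block, 0 members were called, their median difference was 0.02, and 1140 probe sets against 1059 had an unadjusted p under 0.05. Same-numbered retinas of the 2 diets deviated together at r of -0.11 to 0.16. Whether the replicate numbers pair the retinas was not tested, and the labels do not say. The FN1 difference turned to 0.017 with centred arrays and to 0.018 after a second quantile normalization, and that of COL2A1 to -0.035 as a mean over probe sets. By mean ranks in the exact rank-sum test the differences were 0.56 for FN1, -1.0 for LAMB2 and 1.89 for LUM, against the sign of their means. Leaving out 1 retina, the difference ran from -0.067 to 0.085 for FN1, -0.0084 to 0.043 for ITGB5, -0.047 to 0.040 for LAMB2, -0.12 to 0.20 for LUM and -0.034 to 0.11 for COL5A1. In 24 of the 30 members the difference moved by over 1.5 times without 1 retina or another, the exceptions being COL1A2, COL3A1, COL6A2, LAMC1, MMP14 and SPARC. Combinations of member and marker list past the threshold numbered 0, but 2 with centred arrays, 1 after a second quantile normalization and 0 to 2 with 1 retina left out, a check added after seeing the data. In the same checks r ran from 0.73 to 0.81 for COL4A2 with endothelial markers and from 0.68 to 0.82 for ITGB1 with mural cell markers. The cause of these changes was not tested. Differences under about 1.2-fold would often be missed with 9 retinas per diet, and dim members near the filter have compressed differences.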
